A study of Homo sapiens with 19 samples.

Results

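The genes described here are the 4 CDC2-like kinases CLK1, CLK2, CLK3 and CLK4, the L-type cyclins CCNL1 and CCNL2, and the O-GlcNAc transferase OGT. They were chosen by symbol because these genes are known for detained introns, and they are 7 of the 58051 human genes in the exon and gene-body count tables. RNA was sequenced from untreated K562, an established human erythroleukaemia cell line, as whole cells, cytoplasm, nuclear wash and nucleus, with 4 libraries depleted of rRNA in each group. The nuclear wash was also sequenced without rRNA depletion in 3 libraries. The labels name the wash and do not describe what it contains, and nothing in them ties replicates to separate cultures. The p-values therefore reflect the spread among these libraries only, and that spread may be technical.

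Detained introns are introns that stay in otherwise spliced, polyadenylated transcripts, which are held in the nucleus until the intron is removed or the transcript decays. CLK kinases phosphorylate the serine and arginine-rich domains of SR splicing factors, and blocking CLK activity changes the splicing of detained introns, those of the CLK genes included. In CLK1 the introns on either side of an alternative exon, introns 3 and 4, are the known detained ones, and skipping of that exon gives a protein without its kinase domain. L-type cyclins bind the CDK11 kinases, sit in nuclear speckles and take part in splicing. OGT adds N-acetylglucosamine to serine and threonine residues of nuclear and cytoplasmic proteins, and splicing of its detained intron responds to the level of that modification.

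All 7 genes had counts in every library, with 66 to 4385 exon counts per depleted library and 6 to 195 per undepleted library. Library totals were 1373755 to 7955415 and 923464 to 1801293 exon counts, so the undepleted values are the least precise. The fractions separated the landmarks: MALAT1, a nuclear-retained noncoding RNA, differed by 4.24 on the log2 scale between nucleus and cytoplasm, and GAPDH, a cytoplasmic mRNA, by -3.79. The 8 erythroid genes listed for K562 were detected in all 16 depleted libraries. Of 7 markers that K562 should lack, MS4A1 and KRT5 were at 0 counts in 15 of the 16. The summed level of those 7 markers was 162 to 210 CPM (counts scaled to a common library size) in the wash, against 45.7 to 72.9 CPM over the libraries of the 3 other depleted groups. Their part in the wash values below was not tested.

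The splice sites of annotated retained introns are shown first because they mark where the members resemble each other in sequence and where they differ. In GENCODE 29 on GRCh38, 17 of the 89 introns of the members' principal transcripts are spanned by a transcript annotated as intron-retaining. CCNL1 has 6 of them, CLK1 and CLK4 have 4 each, CLK3 has 2 and OGT has 1, while CLK2 and CCNL2 have 0. Introns are numbered from the 5′ end of the principal transcript. Intron 4 of CLK1 lies at chr2:200859747-200860124 on the minus strand and is 378 bases long. Intron 4 of CLK4 lies at chr5:178616949-178617343 on the minus strand with 395 bases, and that of CLK3 at chr15:74622217-74622493 on the plus strand with 277 bases. Intron 4 of OGT lies at chrX:71544636-71547906 on the plus strand and intron 4 of CCNL1 at chr3:157152242-157153035 on the minus strand. The CLK1 gene spans chr2:200853009-200864744, CLK2 chr1:155262868-155278491 and CLK4 chr5:178602664-178630615, all on the minus strand, and CLK3 spans chr15:74598500-74645414 on the plus strand. CCNL1 spans chr3:157146508-157160760 and CCNL2 chr1:1385711-1399328 on the minus strand, and OGT spans chrX:71533083-71575897 on the plus strand. In the sequences below, read 5′ to 3′ from the GENCODE transcripts, capitals mark intronic bases and lower case marks exonic bases.
CLK1 intron 4, 5′ splice site: gatGTATAG
CLK4 intron 4, 5′ splice site: gatGTATAG
CLK3 intron 4, 5′ splice site: gatGTACAG
CLK1 intron 4, 3′ splice site: GATTTATTTCTCTCTTTTAGatg
CLK4 intron 4, 3′ splice site: TTTTTCCCTCCTCACTCTAGatg
CLK3 intron 4, 3′ splice site: CAATTTCTTTTCTCTCCTAGatg
CLK1 intron 3, 5′ splice site: gggGTATGA
CLK4 intron 3, 5′ splice site: tcgGTATGA
CLK1 intron 3, 3′ splice site: CGCCCACTTGACGTTTCCAGaag
CLK4 intron 3, 3′ splice site: CTGCCCACTTGCCGTTCCAGaag
OGT intron 4, 5′ splice site: aagGTAGGT
OGT intron 4, 3′ splice site: TTTCATTAACCCCTCCTAAGgca
CCNL1 intron 4, 5′ splice site: aagGTGAGT

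The 5′ splice site of intron 4 was identical in CLK1 and CLK4, and that of CLK3 matched it at 8 of 9 positions. Among 7979 annotated retained introns of protein-coding genes, the site of CLK1 and CLK4 occurred in these 2 introns and in no other. The site of CLK3 occurred once. Each of the 3 sites matched the most common site of that set, cagGTGAGT, at 3 of 9 positions. The median over the set was 6 positions, and 1.74% of its introns matched at 3 or fewer. Intron 3 of CLK1 and of CLK4 matched at 4 positions and intron 4 of OGT at 6, while intron 4 of CCNL1 matched at 8. Between CLK1 and CLK4, intron 3 was identical at 7 of 9 positions of the 5′ site and at 14 of 23 positions of the 3′ site. Intron 3 of CLK3, also annotated as retained, was identical to that of CLK1 at 4 of 9 and 7 of 23 positions. With CLK4 it was identical at 6 of 9 and 7 of 23. At the 3′ site of intron 4, CLK1 and CLK3 were identical at 16 of 23 positions, CLK1 and CLK4 at 12, and CLK3 and CLK4 at 11. These are descriptions of annotated sites. The counts do not resolve single introns, so retention of a given intron was not measured.

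Exon counts of all 7 genes were higher in the nucleus than in the cytoplasm, and the libraries of the groups did not overlap for any of them. Of 15940 genes tested, 39.3% were called higher at an adjusted p under 0.05 in edgeR's quasi-likelihood test, and 36.3% had no overlap in that direction. The members' median difference was 2.47 on the log2 scale, against 0.03 over all tested genes. Libraries were scaled to a typical gene without change, so a higher CPM gives a larger share of a fraction's RNA. More RNA of a gene and less RNA of other genes cannot be told apart in such bulk fractions, nor can fewer cells and less RNA per cell.

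CLK1 had 22.2, 17.5, 19.1 and 19.8 CPM in cytoplasm replicates 1 to 4 and 110, 116, 106 and 102 CPM in nucleus replicates 1 to 4. Every nuclear library was far above every cytoplasmic one, a difference of 2.47 ± 0.15 (SE) on the log2 scale with an adjusted p of 6.28e-12. CLK4, the closest paralog of CLK1, had 19, 17.2, 11 and 14.5 CPM in the cytoplasm and 84.7, 84.9, 67.4 and 87.7 CPM in the nucleus. Its difference was 2.39 ± 0.18, with an adjusted p of 2.1e-10. Nucleus replicate 3 was the low one of CLK4 and still stood above all 4 cytoplasmic libraries. In fold terms, CLK1 was 5.53 times and CLK4 5.26 times as abundant in the nuclear libraries.

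The 2 other kinases of the family had smaller differences. CLK3 had 30.9, 29.8, 24.3 and 29.4 CPM in the cytoplasm and 65.0, 74.2, 69.3 and 62.3 CPM in the nucleus, a difference of 1.25 ± 0.12 with an adjusted p of 3.92e-09. CLK2, whose protein localizes to nuclear speckles, had 25.2, 22.9, 28.1 and 35.9 CPM in the cytoplasm and 61.9, 53.6, 53.0 and 52.4 CPM in the nucleus. The highest cytoplasmic library, replicate 4, lay below the lowest nuclear one. The difference of CLK2 was 0.98 ± 0.17, with an adjusted p of 1.78e-05, and it was not called with spike-in library sizes (0.36, adjusted p = 0.0599).

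The L-type cyclins differed most among the members together with OGT. CCNL1 had 44.6, 47.0, 46.8 and 41.8 CPM in the cytoplasm and 396, 377, 340 and 333 CPM in the nucleus, a difference of 3.002 ± 0.14 with an adjusted p of 1.27e-13. CCNL2 had 36.7, 48.3, 34.7 and 41.7 CPM in the cytoplasm and 295, 322, 392 and 389 CPM in the nucleus. Its difference of 3.11 ± 0.13, or 8.65-fold, had an adjusted p of 6.93e-14 and was above that of 87.6% of all tested genes. Among the 7 members this rank was lowest for CLK2, at 68.8%.

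OGT had the most counts of the members. It had 107, 103, 119 and 121 CPM in the cytoplasm and 737, 701, 1193 and 1164 CPM in the nucleus. Replicates 1 and 2, whose column names begin with 1, were lower in the nucleus than replicates 3 and 4, whose names begin with 2. Whole cells showed the same split, with 299.5, 340, 526 and 492 CPM. The difference between nucleus and cytoplasm was 3.08 ± 0.20 over all libraries, with an adjusted p of 1.5e-11. It was 2.77 within the libraries of prefix 1 and 3.30 within those of prefix 2. The labels do not say what the prefixes stand for.

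**Figure D1:**
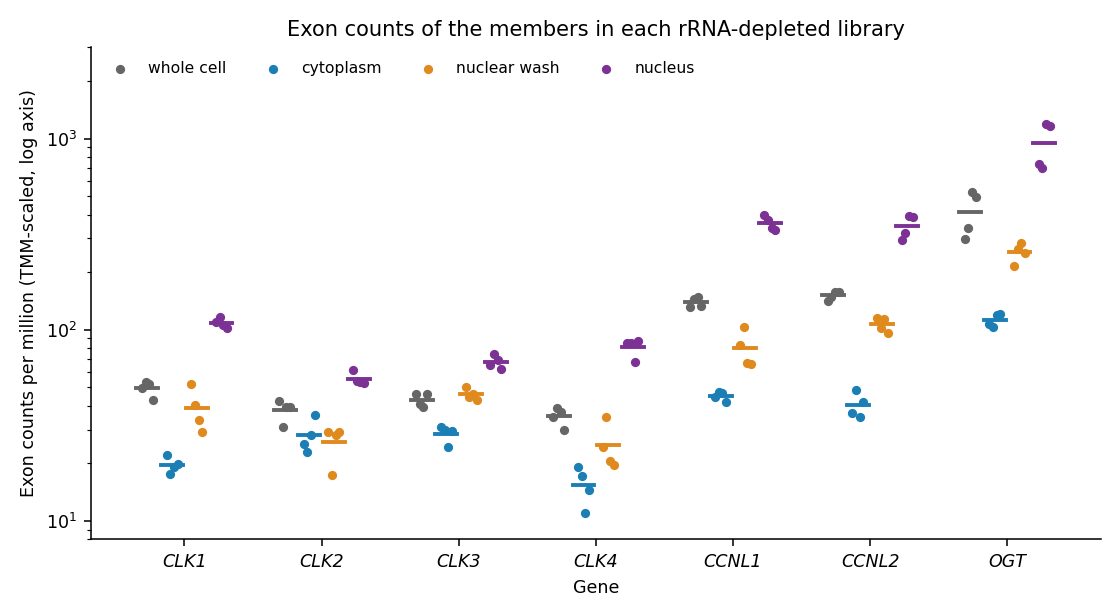
Exon CPM (log axis) of the 7 genes in each rRNA-depleted library, with a point per library in replicate order, a bar at the mean and a colour per fraction (n = 4 libraries). Nuclear libraries lie above cytoplasmic ones for every gene, and the OGT points of nucleus and whole cell fall into a lower and an upper pair.

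The prefix did not change the direction for any member. Nuclear levels above cytoplasmic ones were called for 7 of 7 genes within prefix 1, against 37.9% of all tested genes. The differences ran from 1.20 for CLK3 to 3.07 for CCNL1. Within prefix 2 they were also called for 7 of 7, against 38.0% of all tested genes, with differences from 0.73 for CLK2 to 3.36 for CCNL2.

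In the nuclear wash, 6 of the 7 genes were higher than in the cytoplasm, where 22.8% of all tested genes were called higher, and CLK2 was not called. The members' median difference was 0.83 on the log2 scale, against 0.05 over all genes. CCNL2 had 115, 102, 113 and 96.1 CPM in wash replicates 1 to 4 and was 1.40 ± 0.13 higher than in the cytoplasm, with an adjusted p of 3.77e-08. OGT had 216, 265, 285 and 251 CPM in the wash, a difference of 1.18 ± 0.19 with an adjusted p of 3.8e-05. The wash libraries of these 2 genes lay above all cytoplasmic ones, as they did for 18.8% of tested genes.

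CLK1 had 52.2, 40.3, 33.7 and 29.25 CPM in the wash, with prefix 1 above prefix 2. Its difference from the cytoplasm was 0.97 ± 0.15, and it was 1.20 within prefix 1 and 0.70 within prefix 2. CCNL1 had 83.5, 103, 67.2 and 66.1 CPM and showed the same split, with a difference of 0.83 ± 0.13 over all libraries, 1.03 within prefix 1 and 0.59 within prefix 2. CLK4, with 24.3, 35.0, 20.5 and 19.6 CPM, differed by 0.70 ± 0.19, and CLK3, with 50.04, 44.7, 46.0 and 42.95 CPM, by 0.68 ± 0.11. Both were called, with adjusted p of 0.00431 and 7.03e-05.

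CLK2 had 29.06, 17.4, 28.0 and 29.05 CPM in the wash, which lay within the range of its cytoplasmic libraries except for replicate 2. The difference was -0.13 ± 0.17, with an adjusted p of 0.554. The test did not separate the fractions for this gene, which does not show that its levels were equal.

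**Figure D2:**
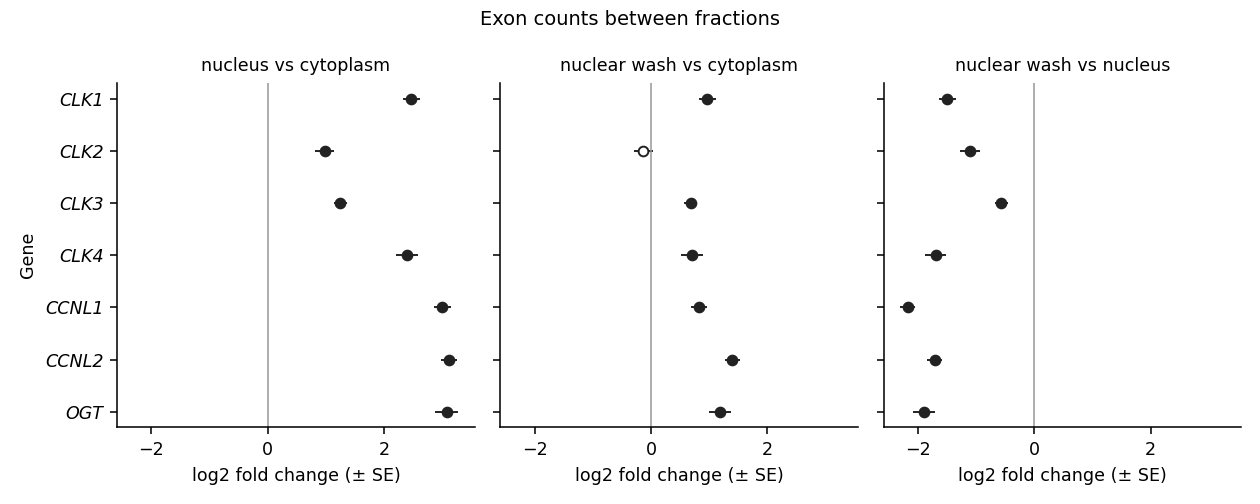
Log2 fold change of exon counts (x axis, with standard error) for each gene in 3 comparisons of depleted fractions, from a single fit of 16 libraries. Filled points passed the test. CLK2 in nuclear wash against cytoplasm is the open point, and all 7 points of nuclear wash against nucleus lie below 0.

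Against the nucleus, all 7 genes had lower wash levels, where 35.4% of tested genes were called lower. CCNL1 had the largest difference at -2.18 ± 0.13, followed by OGT at -1.90 and CCNL2 at -1.71. CLK4 and CLK1 differed by -1.69 and -1.50, CLK2 by -1.11 and CLK3 by -0.57. The call for CLK3 was lost without the filter on low counts (-0.34, adjusted p = 0.0806). The wash thus lay between cytoplasm and nucleus for 6 members, on the scale that sets the typical gene to no change. With library sizes taken from the yeast spike-ins, all 7 genes had lower wash than cytoplasmic levels, from -1.77 for CCNL2 to -3.31 for CLK2. The median of all genes was -3.10 on that scale. The amount of spike-in per cell or per mass of RNA is not in the labels.

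Whole cells lay between nucleus and cytoplasm for every member. Nuclear levels were higher than whole-cell levels for 7 of 7 genes, against 25.9% of all genes, and cytoplasmic levels were lower for 7 of 7, against 27.6%. CCNL1 showed the largest nuclear difference from whole cells, 1.37 ± 0.13, and CLK2 the smallest, 0.53 ± 0.17. CCNL2 showed the largest cytoplasmic difference, -1.91 ± 0.13, and CLK2 again the smallest, -0.44 ± 0.16. With spike-in library sizes, all 7 members had lower nuclear than whole-cell levels, from -1.35 for CLK2 to -0.50 for CCNL1, where the all-gene median was -1.83. The nuclear call of CLK2 was lost without whole cell replicate 2 (0.42, adjusted p = 0.0529), without the low-count filter (0.38, adjusted p = 0.0818), within prefix 2 (0.38, adjusted p = 0.057) and with gene-body counts (0.097, adjusted p = 0.595). Its cytoplasmic call (adjusted p = 0.0301) was lost when whole cell replicate 1, 3 or 4 or cytoplasm replicate 1, 2 or 3 was left out, with differences from -0.34 to -0.44. It was also lost within prefix 2 (-0.35, adjusted p = 0.07) and with gene-body counts (-0.013, adjusted p = 0.94). These 3 groups share libraries across the comparisons.

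Between wash and whole cells, 5 of the 7 genes were lower, against 19.7% of all genes. CCNL1 differed by -0.80 ± 0.13, OGT by -0.70 ± 0.19, CLK2 by -0.57 ± 0.17, CCNL2 by -0.51 ± 0.13 and CLK4 by -0.50 ± 0.18. The call for CLK4 (adjusted p = 0.0388) was lost when whole cell replicate 1, 2 or 3 or nuclear wash replicate 1, 3 or 4 was left out, with the largest adjusted p at 0.129 without wash replicate 4 (-0.39). It was also lost with DESeq2 (-0.46, adjusted p = 0.0695), with DESeq2's size factors in edgeR (-0.46, adjusted p = 0.0645), without the low-count filter (-0.42, adjusted p = 0.0776) and without mitochondrial and rRNA genes (-0.45, adjusted p = 0.0661). Within prefix 1 the difference of CLK4 was -0.29 (adjusted p = 0.249), and with gene-body counts it was -0.26 (adjusted p = 0.157). Gene-body counts also lost the calls for CCNL2 (-0.086, adjusted p = 0.597) and OGT (-0.39, adjusted p = 0.102). CLK1 was not called, at -0.36 ± 0.15 with an adjusted p of 0.0603. It was called with the replicate number as a block (-0.38, adjusted p = 0.0155), within prefix 2 (-0.63, adjusted p = 0.00171) and without a composition factor (-0.66, adjusted p = 0.00134). Leaving out wash replicate 1 (-0.51, adjusted p = 0.00615) or whole cell replicate 4 (-0.41, adjusted p = 0.048) also gave a call. So did spike-in library sizes (-4.73, where the all-gene median was -4.51), while gene-body counts put CLK1 at 0.025. CLK3 was not called, at 0.10 ± 0.11, but was called higher with gene-body counts (0.50, adjusted p = 0.000813).

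Per kilobase of annotated exon, OGT was the most abundant member in every fraction, with 90.8 CPM per kilobase in the nucleus and 10.5 in the cytoplasm. These levels use a scaling of all 19 libraries together, so they are not the CPM above divided by length. In the nucleus the order of these levels was OGT, CCNL2 (47.9), CCNL1 (38.9), CLK1 (19.7), CLK2 (14.1), CLK4 (9.62) and CLK3 (3.11). Only CCNL2 and CCNL1 overlapped between neighbours there. In the cytoplasm the order changed, with CLK2 second at 6.99, then CCNL2 (5.39), CCNL1 (4.73), CLK1 (3.48), CLK4 (1.78) and CLK3 (1.28). Libraries of CLK2 and CCNL2, of CCNL2 and CCNL1, and of CLK4 and CLK3 overlapped in that order. The annotated exons of CLK3 cover 20443 bases, far more than the 3670 bases of CLK2, so levels per kilobase are lowered for CLK3 wherever parts of these exons are not used in K562.

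Between undepleted and depleted wash, CLK2 was the 1 member called. On the scaling of the 7 wash libraries alone, CLK2 had 23.8, 39.99 and 48.0 CPM in undepleted replicates 1 to 3 and 21.5, 12.5, 19.8 and 21.0 CPM in depleted replicates 1 to 4. The undepleted libraries lay above all depleted ones, as they did for 14.2% of 11627 genes tested. The difference was 1.02 ± 0.26 with an adjusted p of 0.0318, where 7.75% of genes were called higher and 3.35% lower. The call was lost when depleted wash replicate 2 (0.86, adjusted p = 0.0552) or 3 (1.05, adjusted p = 0.0537), or undepleted replicate 2 (0.96, adjusted p = 0.14) or 3 (0.83, adjusted p = 0.168), was left out. It was also lost with spike-in library sizes (0.78, adjusted p = 0.0864) and without a composition factor (0.49, adjusted p = 0.111). The 6 other members were not called, with differences from -0.85 for CLK4 to 0.35 for CLK3, and CLK4 had only 6 to 13 counts per undepleted library. With the column stem, the leading characters of the column name, as a block, CLK4, CCNL1 and OGT were called lower and CLK2 higher. The number of called genes then rose from 1290 to 3778, with 16.7% of all tested genes higher and 15.8% lower. The labels do not say what the stem stands for.

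Intronic counts were taken as gene-body counts minus exon counts, and the intronic share as their percentage of the gene-body counts. In the nucleus the share of every member lay below the median gene, at 73.3%, and in whole cells every member lay below the median of 53.1%. CCNL2 had the lowest nuclear share, 5.46, 5.55, 6.06 and 4.94% in replicates 1 to 4, and only 0.242% of 10314 genes had a lower mean. CLK1 had 18.3, 18.55, 17.1 and 16.2%, below which lay 1.93% of genes. CLK4 had the highest share of the members, with 50, 44.0, 50.9 and 41.3%. The share is not corrected for intron length. Per kilobase, the nuclear ratio of intronic to exonic counts was 0.641 for CCNL1, above the all-gene median of 0.429. The other members lay below it, from 0.0590 for CCNL2 to 0.426 for CLK3. In whole cells CCNL1 (0.604), CLK3 (0.427) and CLK4 (0.301) lay above the median of 0.173 and the others below. In the cytoplasm every member lay above the median of 0.0299, from 0.0442 for CCNL2 to 0.495 for CLK3.

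The cytoplasmic shares were lower for 6 members, with no overlap between the libraries of nucleus and cytoplasm, as for 86.0% of the 10314 genes. The median over those genes was 73.3% in the nucleus and 17.4% in the cytoplasm. CLK2 went from 44.0% ± 5.62 (SD, n = 4) in the nucleus to 14.7% ± 6.40 in the cytoplasm, CLK4 from 46.6% ± 4.64 to 22.0% ± 5.41, and CCNL1 from 28.8% ± 1.80 to 13.2% ± 1.74. OGT went from 28.2% ± 1.77 to 13.5% ± 1.44 and CLK1 from 17.5% ± 1.08 to 8.98% ± 1.83. CCNL2 went from 5.50% ± 0.459 to 4.19% ± 0.418. In exact two-sided permutation tests of 4 libraries against 4, these 6 differences had the smallest p the design allows, 0.0286. After adjustment over the 42 tests of 7 members and 6 pairs of fractions the p was 0.0522, so 0 of the 42 passed.

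In the wash the share of CCNL1 was 23.6% ± 3.51, that of CLK4 33.8% ± 3.10 and that of OGT 16.5% ± 1.47. The wash libraries of these 3 members lay above all cytoplasmic ones, as they did for 60.5% of genes. Shares of CLK1 (9.17% ± 3.27) and CLK2 (15.0% ± 5.997) in the wash overlapped those in the cytoplasm. In the undepleted wash the CLK2 share was 4.55, 1.75 and 2.22%, below all 4 depleted wash libraries (10.2, 23.8, 13.3 and 12.9%). Each undepleted value rests on 1 intronic count beside 21 to 56 exon counts. The difference was not tested, and shares over all genes are not given for the undepleted wash.

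CLK3 was the member whose shares overlapped between nucleus and cytoplasm. Its share was 36.4, 36.5, 32.4 and 36.8% in the nucleus and 42.9, 39.5, 39.1 and 34.0% in the cytoplasm, with overlapping libraries and a permutation p of 0.171 (exact test). Its cytoplasmic share was above that of 73.6% of genes, while its nuclear share was above that of 8.74%. CLK3 overlaps EDC3, a gene for a decapping factor on the opposite strand, over 14857 bases, and the strand setting of the counting is not given in the sources used here. The intronic share of EDC3 was 89.2% ± 1.52 in the nucleus and 27.1% ± 2.96 in the cytoplasm. The part of EDC3 reads in the values of CLK3 was not tested. CLK2 overlaps HCN3, also on the opposite strand, and the part of HCN3 reads in the values of CLK2 was not tested.

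**Figure D3:**
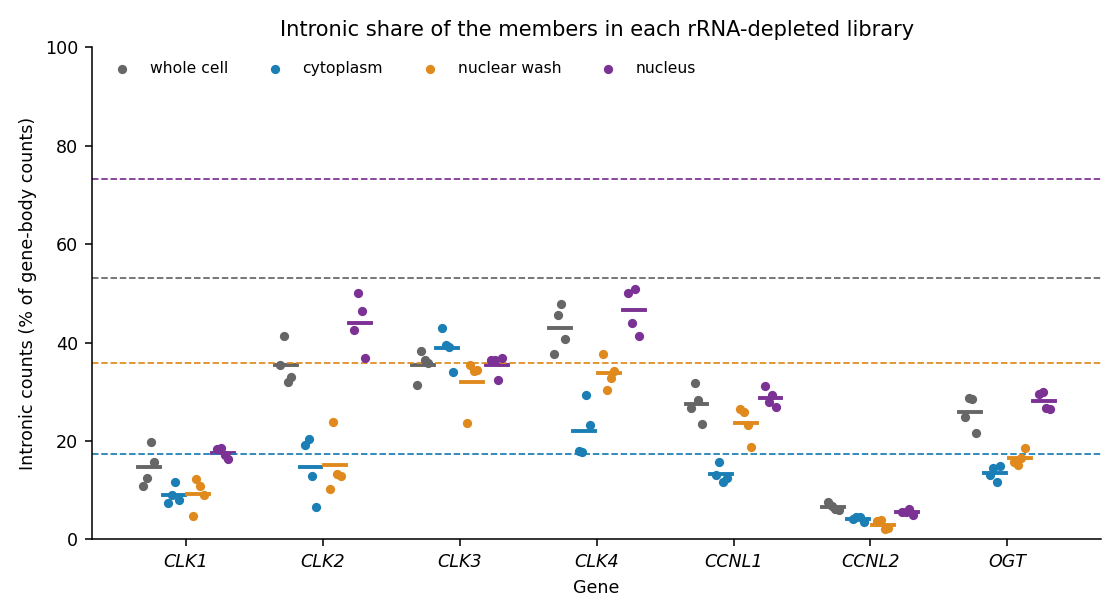
Intronic counts as a percentage of gene-body counts for the 7 genes in each rRNA-depleted library, with a point per library in replicate order, a bar at the mean and a colour per fraction. Dashed lines give the median over 10314 genes in the fraction of the same colour. In the nucleus all 7 genes lie below the dashed line at 73.3%.

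The ratio of intronic to exon counts was then tested across 10314 genes in a model with a term per library. Between nucleus and cytoplasm it was higher in the nucleus for 5 of 7 members, against 87.8% of all genes. The differences on the log2 scale were 2.28 ± 0.30 for CLK2, 1.65 ± 0.24 for CLK4, 1.41 ± 0.20 for CCNL1, 1.33 ± 0.18 for OGT and 1.09 ± 0.29 for CLK1. CCNL2 (0.41 ± 0.25, adjusted p = 0.126) and CLK3 (-0.21 ± 0.20, adjusted p = 0.318) were not called. The median over all genes was 3.78, and the members ranked from above 4.87% of genes for CLK3 to above 24.6% for CLK2. When exon and intronic columns were scaled separately, which sets the typical gene's ratio to no change, all 7 members were lower in the nucleus, from -1.60 for CLK2 to -4.10 for CLK3.

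**Figure D4:**
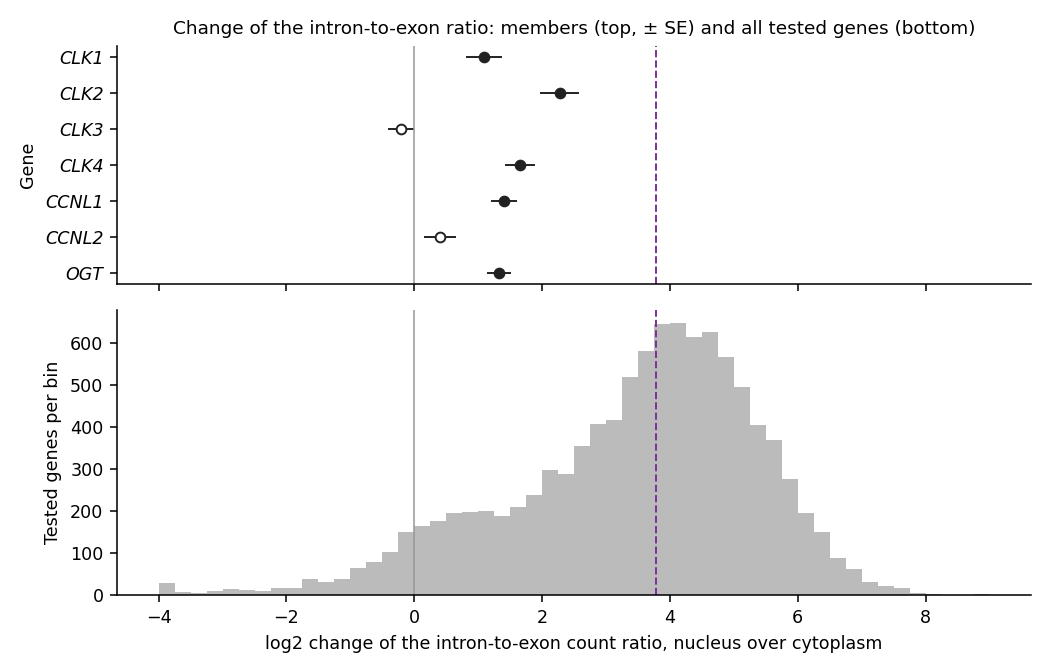
Log2 difference of the intron-to-exon count ratio between nucleus and cytoplasm. The top panel gives each gene with its standard error, filled where the test was passed, and the bottom panel gives the number of the 10314 tested genes per bin, with genes beyond the ends in the outermost bins. The dashed line marks the all-gene median of 3.78, and all 7 genes lie to its left.

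In the wash, the ratio was higher than in the cytoplasm for CCNL1 (1.02 ± 0.21) and CLK4 (0.84 ± 0.25) and was not called for the 5 other members, against 69.7% of all genes called higher. The all-gene median was 1.27 and the members' median 0.13. Against the nucleus the wash ratio was lower for 5 of 7 members, where 84.1% of genes were lower. CLK2 differed by -2.15 ± 0.31, CLK1 by -1.01 ± 0.26, OGT by -0.99 ± 0.18, CCNL2 by -0.95 ± 0.24 and CLK4 by -0.81 ± 0.22. The call for CCNL2 was lost within prefix 1 (-0.54, adjusted p = 0.0909). CCNL1 (-0.39, adjusted p = 0.0549) and CLK3 (-0.20) were not called, and CCNL1 was called without nuclear wash replicate 1 (-0.46, adjusted p = 0.037) or replicate 2 (-0.46, adjusted p = 0.0352). The call for CLK4 against the cytoplasm was lost within prefix 2 (0.51, adjusted p = 0.174).

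The ratio in nucleus against whole cells passed the test for no member. edgeR's quasi-likelihood test called 0 of 7, and 0 of 7 had an unadjusted p under 0.05. Of all tested genes 74.5% were called higher in the nucleus, with a median of 1.22, while the members ranged from -0.26 for CCNL2 to 0.54 for CLK2. CLK2 was called higher without whole cell replicate 2 (0.67, adjusted p = 0.0466) or nucleus replicate 4 (0.66, adjusted p = 0.0453). In intronic share CLK1 had 17.5% in the nucleus and 14.7% in whole cells, OGT had 28.2% and 25.9%, and CCNL2 had 5.50% and 6.64%.

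How much of a gene's introns is annotated as exon bears on all of these intronic values and on the exon counts. Reads in an intron that some annotated transcript keeps are counted as exon reads. The exon counts above can therefore hold reads of such introns, and their part in the nuclear differences was not tested. In GENCODE 29, 55.4% of the intron length of the principal CCNL1 transcript lies within an annotated exon, 35.6% in CCNL2, 33.0% in CLK1, 28.97% in CLK3, 24.2% in CLK4, 16.4% in CLK2 and 11.6% in OGT. The median of 18522 protein-coding genes was 2.19%, so all 7 members were above it. The annotation release used for counting is not given in the sources used here. Across tested genes the median nuclear-to-cytoplasmic difference of the ratio was 4.21 where less than 5% of intron length was annotated as exon. It was 3.61 at 20 to 40% and 3.42 at 40% or more. The members' values ran from -0.21 to 2.28, and the part of the annotation in them was not tested.

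Counts over the whole gene body, which hold exon and intronic reads together, gave another picture of nucleus against cytoplasm for CLK3 and CLK2. With them CLK3 was lower in the nucleus than in the cytoplasm (-0.33, adjusted p = 0.00792), and CLK2 was not called (0.11, adjusted p = 0.48). The 5 other members were higher in the nucleus by 1.12 for CLK1 to 1.86 for OGT. In wash against cytoplasm, gene-body counts put CLK2 lower (-0.47, adjusted p = 0.0122) and did not call CLK3 (0.17, adjusted p = 0.191). In wash against whole cells, gene-body counts called 1 member higher and 2 lower, against 25.5% and 22.5% of all tested genes.

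Paralogs were compared through the log2 ratio of their CPM within each library. CLK1 over CLK2 was 1.47 higher in the nucleus than in the cytoplasm, CLK1 over CLK3 was 1.22 higher, CLK2 over CLK4 was 1.42 lower (log2 difference -1.42) and CLK3 over CLK4 differed by -1.17. The libraries of the fractions did not overlap for these 4 ratios, and the exact permutation p was 0.0286 for each, or 0.0667 after adjustment over 14 tests. CLK1 over CLK4 differed by 0.05 (exact p = 0.771) and CCNL1 over CCNL2 by -0.11 (exact p = 0.543). Of the 14 ratios, 6 had the smallest p that 4 libraries against 4 allow, 0.0286, and 0 passed after adjustment.

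Other genes of the pathways are given by list, against 39.3% of all tested genes called higher and 37.5% called lower in the nucleus. Of 13 tested SR proteins and TRA2 factors, the substrates of CLK kinases, 6 were higher in the nucleus than in the cytoplasm and 4 were lower, from SRSF4 at 1.63 to SRSF8 at -1.53. Of 3 SRPK kinases, which phosphorylate SR proteins in the cytoplasm, 1 was higher and SRPK1 was lower at -0.70. Of 14 transcription cyclins and their kinases, 5 were higher, with CCNH at 1.51, and 7 were lower, with CCNK at -1.35. Among 9 DYRK, HIPK and PRP4 kinases, relatives of the CLK family, PRPF4B was higher at 1.92 and 4 were lower, with HIPK2 at -1.86. The medians of these lists lay between -0.32 and 0.20.

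Of the 6 tested O-GlcNAc and hexosamine genes, OGA, whose product removes the modification that OGT adds, was higher in the nucleus at 1.52. HCFC1, a protein that OGT modifies and cleaves, was lower at -1.68, as were 2 others. Of 8 other genes known for detained or retained introns, 6 were higher in the nucleus and 0 were lower, with ARGLU1 at 3.07 and a median of 0.73. In the intron-to-exon ratio, 6 of 6 tested genes of that list were higher in the nucleus, where 87.8% of all genes were, with a median of 1.99, against 4.08 for 11 transcription cyclins and kinases and 3.31 for 9 SR proteins and TRA2 factors.

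Across the 16 depleted libraries, the genes most like each member were found by the root mean square difference of centred log2 CPM among 10990 genes. The nearest to CLK1 were AHSA2P (0.142) and RNPC3 (0.161), and the nearest to CLK4 were ZNF207 (0.156) and PCSK7 (0.161). CCNL1 was nearest to ADGRV1 (0.160) and NABP1 (0.165), CCNL2 to AC078846.1 (0.191) and CR1L (0.207), and OGT to C1RL-AS1 (0.178) and AL049543.1 (0.188). CLK2 was nearest to PLEKHA4 (0.169) and SDCCAG8 (0.181), and CLK3 to NFATC2IP (0.121) and ZNF445 (0.143). Between members the closest pairs were CCNL2 with OGT (0.247) and CLK1 with CLK4 (0.248), while CLK2 and CLK3 were each other's closest at 0.383. The median distance of all genes from a member was 0.719 to 1.30. These distances describe libraries that share 4 fractions.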

How the data were processed

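The authors deposited raw read counts per gene over exons and over gene bodies, with a column per library. Per the submitters' processing notes, cutadapt 2.5, STAR 2.7.0a, featureCounts 1.6.2 and hg38 were used, with no settings given. The annotation release, the strand setting and the treatment of shared reads are unknown here, so values of paralogs, pseudogene copies and overlapping genes are uncertain. Symbols, positions and exon lengths came from GENCODE 29, which held 57447 of 58051 identifiers.

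Exon counts of the 16 depleted libraries entered a single fit of edgeR 4.0.16 (quasi-likelihood test, TMM, filterByExpr, Benjamini-Hochberg adjustment over all tested genes, calls at an adjusted p under 0.05) in R 4.3.3. The 7 wash libraries had their own fit. The 11 spike-in rows entered neither library sizes nor tests. The intron-to-exon ratio was tested on exon and intronic counts in a model with a term per library and a shared library size. Shares and paralog ratios were tested by exact permutation. The scripts were tested on simulated data. The named genes are every member, the called gene of each list with the largest change in each direction at 5 CPM or more, and the 2 genes most like each member. The alternatives tried were DESeq2 1.42.0, other scalings and filters, gene-body counts with their own scaling, each prefix alone, a replicate block, and each library left out.

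Deviations of same-numbered libraries had correlations of 0.169 to 0.551 over 24 pairs of libraries. The same-numbered library was the best match in 10 of the 24, and differently numbered libraries correlated at up to 0.491. These correlations do not settle whether the numbers pair the samples. The main fit therefore held no term for the replicate number, which entered as a block in an alternative. The column names in the labels share a stem among same-numbered libraries of the 4 depleted groups, and nothing says what the stem stands for. The members, lists and tests were chosen with earlier results of these data known. No molecular identifiers are named in the labels.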

Additional observations from a re-analysis of the deposited data

Results flagged for a closer look

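In groups of 4 libraries, 5 of 56 tested sets of member values held a library far from the others, where chance gives about 1 in 20. CLK2 had 17.4 CPM in nuclear wash replicate 2, against 28.0 to 29.1 CPM in the 3 other wash libraries. CLK2 also had 61.9 CPM in nucleus replicate 1, against 52.4 to 53.6 CPM in the others. CLK4 had 67.4 CPM in nucleus replicate 3, against 84.7 to 87.7 CPM. The intronic share of CLK3 was 23.6% in nuclear wash replicate 1, against 34.2 to 35.5%, and 32.4% in nucleus replicate 3, against 36.4 to 36.8%.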

How the results depend on the processing

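Under spike-in library sizes, wash against cytoplasm gave 14869 called genes, with 93.3% of all tested genes lower. There 0 members were higher and 7 lower, with CLK1 at -2.17, CLK3 at -2.49, CLK4 at -2.44, CCNL1 at -2.30, CCNL2 at -1.77 and OGT at -1.99. Nucleus against whole cell then gave 13771 called genes, with 86.4% of all tested genes lower. There 0 members were higher and 7 lower, with CLK1 at -0.73, CLK2 at -1.35, CLK3 at -1.22, CLK4 at -0.67, CCNL1 at -0.50, CCNL2 at -0.66 and OGT at -0.67. Cytoplasm and wash against whole cell gave 14700 and 15940 called genes, with CLK3 at -4.31 in the latter. Undepleted against depleted wash gave 471, with 0 members higher, against 2.84% of all tested genes. All-gene medians on that scale ran from -4.51 to -0.26.

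With gene-body counts, scaled on their own, CLK3 reversed in nucleus against cytoplasm (-0.33), wash against nucleus (0.50) and cytoplasm against whole cell (0.33). CLK1 reversed in wash against whole cell (0.025) and in the undepleted comparison (0.046). Members called in the other direction then numbered 1 lower in nucleus and in wash against cytoplasm, against 40.8% and 24.7% of all tested genes. They numbered 1 higher in wash against nucleus, in cytoplasm and in wash against whole cell, against 38.8%, 37.8% and 25.5%. In wash against whole cell 2 were lower, against 22.5%. Cytoplasm against whole cell gave 12049 called genes. Paralog ratios reversed for CLK1 over CLK4 (-0.35), CLK2 over CLK3 (0.44) and CCNL1 over CCNL2 (0.15) in the nucleus, and CLK3 over CLK4 (-0.38) in the wash. Without a composition factor, CLK3 was -0.21 in wash against whole cell and -0.16 in the undepleted comparison, which had 3999 called genes, 0 members higher and 4 lower. Without the low-count filter that comparison had 1987 called genes and 2 members lower.

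With the column stem as a replicate block, that comparison had 3778 called genes and CLK1 at 0.073. There 3 members were lower (CLK4, CCNL1 and OGT), against 15.8% of all tested genes. There the stems pair undepleted replicates 1, 2 and 3 with depleted replicates 2, 3 and 4. In the other comparisons the pairing by replicate number changed the call of CLK1 in wash against whole cell, and no other member's call.

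With separate TMM factors for exon and intronic columns, the intron-to-exon ratio is relative to the typical gene. Shares of all tested genes called on that scale are not given, so the counts below do not set the members apart. In nucleus against cytoplasm 0 members were higher and 7 lower, with CLK1 at -2.80, CLK2 at -1.60, CLK4 at -2.22, CCNL1 at -2.48, CCNL2 at -3.44 and OGT at -2.57. In wash against cytoplasm 0 were higher and 6 lower, with CLK1 at -1.34, CLK2 at -1.25, CLK4 at -0.57, CCNL1 at -0.39 and OGT at -1.06. In wash against nucleus 6 were higher and 0 lower, with CLK1 at 1.46, CLK2 at 0.35, CLK3 at 2.31, CLK4 at 1.65, CCNL1 at 2.09, CCNL2 at 1.505 and OGT at 1.51. In nucleus against whole cell 7 were lower, with CLK1 at -1.03, CLK2 at -0.74, CLK4 at -1.10, CCNL1 at -1.20 and OGT at -1.13.

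Within prefix 1, wash against whole cell gave 3485 called genes. The share of CLK2 in wash against cytoplasm differed by -2.73 points and its ratio by -0.14, with 1 member's ratio lower. In nucleus against whole cell 1 member's ratio was higher, with CLK3 at 0.067 and CCNL1 at -0.0024. Within prefix 2, the undepleted comparison gave 2686 called genes and 2 members lower. The nuclear share against whole cell differed by -1.02 points for CLK1 and -1.60 for CLK3. The ratio was higher for 1 member in wash against cytoplasm and for 1 in nucleus against whole cell, with CLK1 at -0.13 there and CLK3 at 0.0036 in wash against nucleus. Shares of all tested genes called are not given for the ratio within a prefix.

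Leaving out each library in turn, the undepleted comparison gave 459 to 1492 called genes, 0 to 1 members higher and CLK1 at -0.49 to 0.094. CLK2 in wash against cytoplasm ran from -0.23 to 0.025. In nucleus against whole cell, shares ran from -1.34 to 1.06 points for CLK3 and from -0.10 to 2.67 for CCNL1. In wash against cytoplasm they ran from -0.83 to 1.67 for CLK1 and from -2.58 to 2.25 for CLK2. The paralog ratio of CLK1 over CLK4 ran from -0.064 to 0.19 in the nucleus, and CLK3 over CLK4 from -0.071 to 0.20 in the wash. The ratio in wash against cytoplasm had 0 to 2 members lower, with CLK1 at -0.13 to 0.29 and CLK2 at -0.21 to 0.38. In nucleus against whole cell it had 0 to 1 members higher, with CLK3 at -0.091 to 0.055 and CCNL1 at -0.011 to 0.19.

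Beyond the scalings themselves, which shift every gene, the cause of these changes was not tested. Counts of 66 to 253 for CLK2 and CLK4 per depleted library, and of 6 to 56 per undepleted one, limit the precision for these genes.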
